A study of Rattus rattus with 8 samples.

Results

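The immediate early genes Fos, Jun, Junb, Egr1, Atf3 and Dusp1 and the Kruppel-like factor genes Klf2, Klf4, Klf5 and Klf6 were examined in epithelium of the rat colon. The 10 genes were chosen by name, and each has 1 row among the 11762 genes of the deposited table. All 10 were among the 11069 genes tested, which had at least 1 FPKM (fragments per kilobase of gene, scaled to the mapped total) in at least 4 libraries. Klf2 met that filter through the WKY libraries alone, since it reached 1 FPKM in 4 of 4 WKY libraries and 0 of 4 SHR libraries.

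The libraries are 4 from the Wistar-Kyoto rat (WKY) and 4 from the spontaneously hypertensive rat (SHR), an inbred strain that develops high blood pressure. No agent, genotype, age or sex is given in the labels, and they do not say whether the numbered libraries of a strain came from separate animals, so every p-value rests on how far these libraries spread. The proximal colon was kept on ice in a solution with a reducing and a chelating agent, warmed in chelator and shaken, and the released epithelium was washed and frozen, so every library passed through the same stated handling. Neither the time from death to freezing nor the RNA integrity of single libraries is known here.

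Immediate early genes are transcribed within minutes of a stimulus without new protein synthesis, mostly through mitogen-activated protein (MAP) kinases and transcription factors already present in the cell, and their short-lived messages fall again soon after. They are also known to be induced while tissue is dissociated, warm incubation in particular. Fos, Jun and Junb encode subunits of the dimeric factor AP-1, Egr1 a zinc finger activator, Atf3 a stress-induced factor of the ATF family, and Dusp1 a phosphatase that switches MAP kinases off. Kruppel-like factors are zinc finger proteins that bind GC-rich and CACCC-type sites. In mouse intestine Klf4 is known from the differentiated upper crypt and from goblet cells, and Klf5 from the dividing cells lower down, while Klf2 is best known from endothelium and resting T cells and Klf6 from many tissues.

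The libraries carried strong epithelial transcripts. All 10 epithelial markers had a row, with summed levels of 12380 to 14150 FPKM in WKY and 11170 to 12660 FPKM in SHR. Krt18, a keratin of simple epithelium, fell in SHR (153.6 ± 16.8 against 107.7 ± 7.14 FPKM, limma adjusted p = 0.0121). The keratin genes Krt8 (4918 ± 570 FPKM in WKY, 4385 ± 391 in SHR) and Krt19 (3636 ± 448 FPKM in WKY, 2831 ± 229 in SHR) were the most abundant of the list and missed the threshold. The libraries' summed FPKM ran from 882300 to 1067000, the read depth is unknown, and WKY replicate 3 and SHR replicate 4 stood at the ends of the second principal component (-17.68 and 24.17). The test called 376 genes up and 828 down in SHR (3.4% and 7.48% of those tested, 10.9% together). That split became 644 and 644 after quantile normalization, 541 and 714 with each library centred on its median gene, and 725 and 457 with libraries scaled without the 13 mitochondrial genes, a scaling that moved the median log2 difference of all genes by 0.14.

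Fos, Junb and Egr1 had lower means in SHR than in WKY, and none of them passed the test across all genes. Fos (ENSRNOG00000008015) measured 325.03, 237.66, 143.43 and 218.81 FPKM across WKY replicates 1 to 4, against 122.39, 118.39, 160.89 and 154.8 across SHR replicates 1 to 4. The strains overlapped because WKY replicate 3 lay below SHR replicates 3 and 4, while the other WKY libraries lay above every SHR library. The means were 231.2 ± 74.6 and 139.1 ± 21.8 FPKM (SD, n = 4 each). The log2 difference, SHR minus WKY on the log2(FPKM + 1) scale, was -0.68 ± 0.21 (SE, 95% confidence interval -1.15 to -0.22, limma adjusted p = 0.0627). In bulk RNA, fewer cells of a type and less RNA per cell cannot be told apart.

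Junb (ENSRNOG00000042838) measured 182.17, 162.59, 104.16 and 119.63 FPKM across the WKY libraries, against 82.77, 105.26, 102.22 and 99 across SHR. Only WKY replicate 3 reached down to the SHR values, lying just under SHR replicate 2. The means were 142.1 ± 36.4 and 97.31 ± 10.0 FPKM, with a log2 difference of -0.51 ± 0.17 (95% confidence interval -0.88 to -0.15, limma adjusted p = 0.0689). Without WKY replicate 3 both genes passed, Fos with an adjusted p of 0.00622 and Junb with 0.0177, and 10.9% of all tested genes were then called lower. With SHR replicate 4 left out as well, the adjusted p was 0.00554 for Fos and 0.0188 for Junb, beside 14.6% of genes called lower. Both also carry a q-value under 0.05 in the authors' deposited table, 0.00424 for Fos and 0.0136 for Junb, with log2 fold changes of -0.70 and -0.51, in a table where 15.3% of genes pass that rule and 9.59% do so as lower. Leaving out any other single library left both above the threshold.

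Egr1 (ENSRNOG00000019422) was the least even of the 10 genes. It measured 57.79, 38.93, 13.87 and 23.55 FPKM across the WKY libraries, against 15.69, 24.52, 22.1 and 26.97 across SHR. WKY replicates 1 and 2 stood above every SHR library and WKY replicate 3 below every one. The highest WKY value was 4.17 times the lowest, against 1.72 times in SHR. Its log2 difference of -0.41 ± 0.41 had a 95% confidence interval of -1.38 to 0.56 (limma adjusted p = 0.566), and the authors' deposited table gives a q-value of 0.199.

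Jun, Atf3 and Dusp1 did not pass and their strains overlapped widely. Jun (ENSRNOG00000026293) measured 112.7, 66.51, 58.6 and 62.73 FPKM across the WKY libraries, against 51.75, 64.89, 92.47 and 87.45 across SHR. Its highest value was in WKY replicate 1, followed by SHR replicates 3 and 4, and the log2 difference was -0.01 ± 0.23 (95% confidence interval -0.52 to 0.51, limma adjusted p = 0.99). Dusp1 (ENSRNOG00000003977) measured 75, 42.32, 42.42 and 76.85 FPKM across the WKY libraries, against 42.84, 49.01, 81.34 and 57.5 across SHR. It was high in WKY replicates 1 and 4 and in SHR replicate 3, with a log2 difference of -0.02 ± 0.25 (95% confidence interval -0.58 to 0.54). Atf3 (ENSRNOG00000003745) measured 18.48, 15.21, 17.12 and 17.15 FPKM across the WKY libraries, against 17.64, 17.76, 24.25 and 13.03 across SHR. Its highest and lowest values were both in SHR, in replicates 3 and 4, and the log2 difference was 0.06 ± 0.16 (95% confidence interval -0.28 to 0.41). The Jun and Dusp1 differences turned positive under quantile normalization, median centring and scaling without mitochondrial genes.

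**Figure D1:**
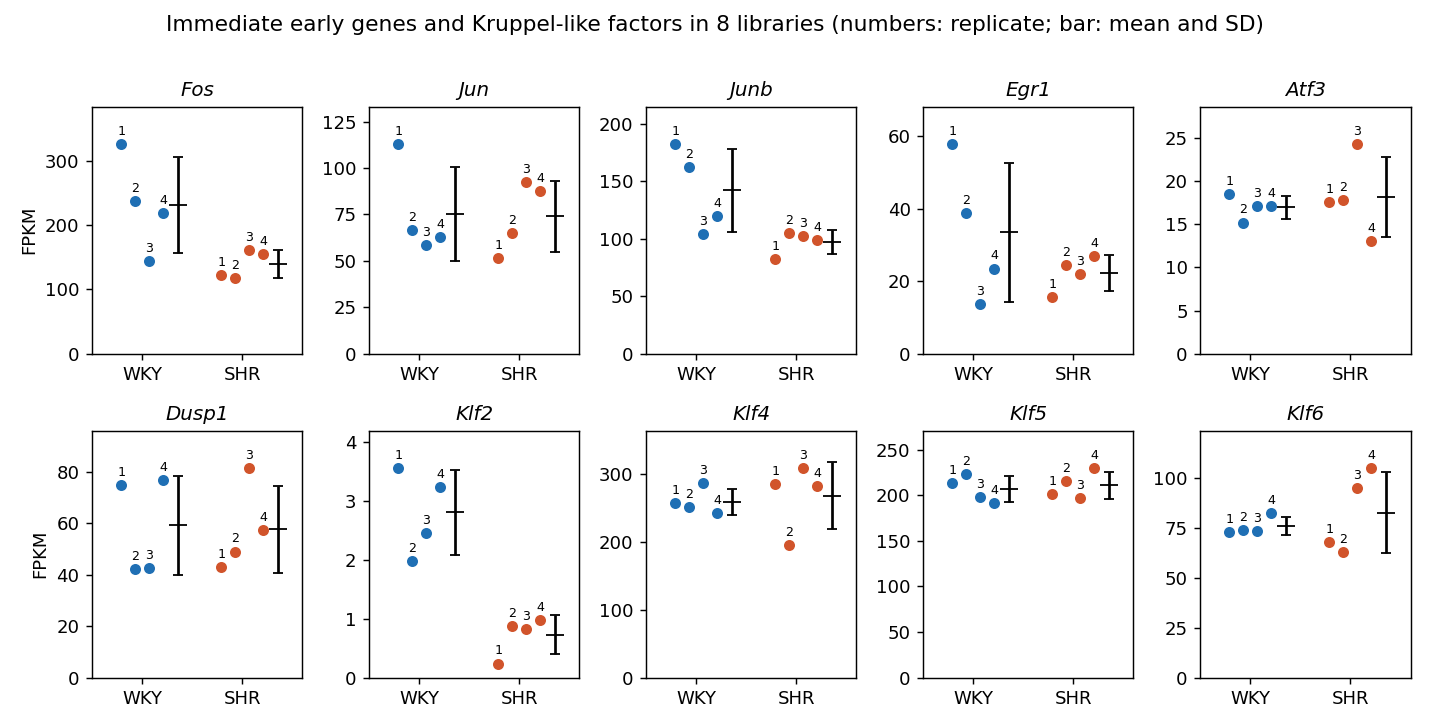
FPKM of each of the 10 genes (vertical axes, each from 0) in the 4 WKY (blue) and 4 SHR (orange) libraries, numbered by replicate, with the mean and SD beside them. Klf2 is the 1 gene whose strains do not overlap, and WKY replicate 1 is the highest library for Fos, Jun, Junb and Egr1.

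The ratio of the AP-1 subunits was read per library. Fos stood at 2.88, 3.57, 2.45 and 3.49 times Jun in WKY replicates 1 to 4 and at 2.37, 1.82, 1.74 and 1.77 times Jun in SHR, so every WKY ratio was above every SHR ratio. The ratio of Fos to Junb overlapped, with 1.38 to 1.83 in WKY and 1.12 to 1.57 in SHR. These ratios were looked at after the values had been seen and carry no test. Of all 45 pairs of the genes examined, 10 had a log2 ratio that did not overlap between the strains. Among the 36 pairs without Klf2 there were 4. The share over pairs of all tested genes was not computed, so these counts do not show whether such gaps are unusual. Of single tested genes, 16.1% did not overlap between the strains in either direction.

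A large part of the variation lay between libraries of 1 strain. The SD of log2(FPKM + 1) among libraries of a strain was 0.65 for Egr1, higher than in 98.5% of all tested genes. Dusp1 (0.437), Jun (0.406) and Fos (0.378) exceeded 95.9%, 95.1% and 93.8% of genes, and Junb (0.285) and Atf3 (0.257) exceeded 83.6% and 76.8%. Klf5 was at the other end with an SD of 0.099, higher than in 7.1% of genes, and Klf4, Klf6 and Klf2 had SDs of 0.218, 0.258 and 0.293. Among the 500 genes nearest in mean level the places were close to these, with Egr1 at 99.2% and Klf5 at 8.58%.

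**Figure D2:**
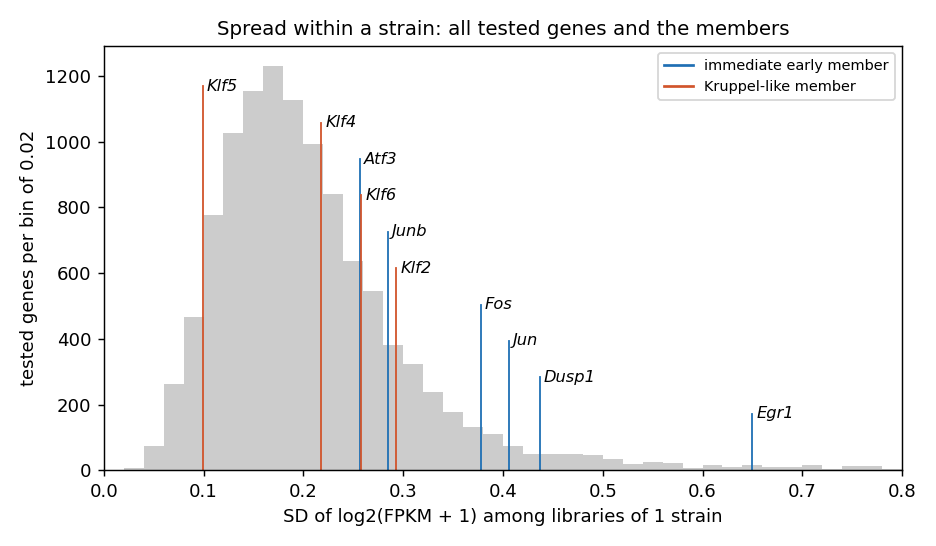
Number of tested genes (vertical axis, grey bars) by the SD of log2(FPKM + 1) among libraries of 1 strain (horizontal axis, cut at 0.8, with 80 genes beyond), with the 6 immediate early genes in blue and the 4 Kruppel-like factor genes in orange. Egr1, Dusp1, Jun and Fos lie in the upper tail and Klf5 in the lower.

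WKY replicate 1 was the WKY library with the highest value for 5 of the 6 immediate early genes, and WKY replicate 4 for the sixth, Dusp1. Over all tested genes WKY replicate 1 was the highest WKY library for 19.7%. WKY replicate 3 was the lowest WKY library for 4 of the 6, where 39.7% of all tested genes were lowest. Averaged over the 6 genes, and relative to the mean of 8 libraries, WKY replicates 1 to 4 stood at 0.64, 0.14, -0.33 and 0.08 on the log2 scale and SHR replicates 1 to 4 at -0.42, -0.18, 0.14 and -0.07. WKY replicates 3 and 4 thus lay within the SHR range, and WKY replicate 2 at its top, the level of SHR replicate 3. Only WKY replicate 1 lay above that range. The log2 SD was wider in WKY than in SHR for 5 of the 6 immediate early genes and 0 of the 4 Kruppel-like factor genes, and for 42.3% of all tested genes.

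**Figure D3:**
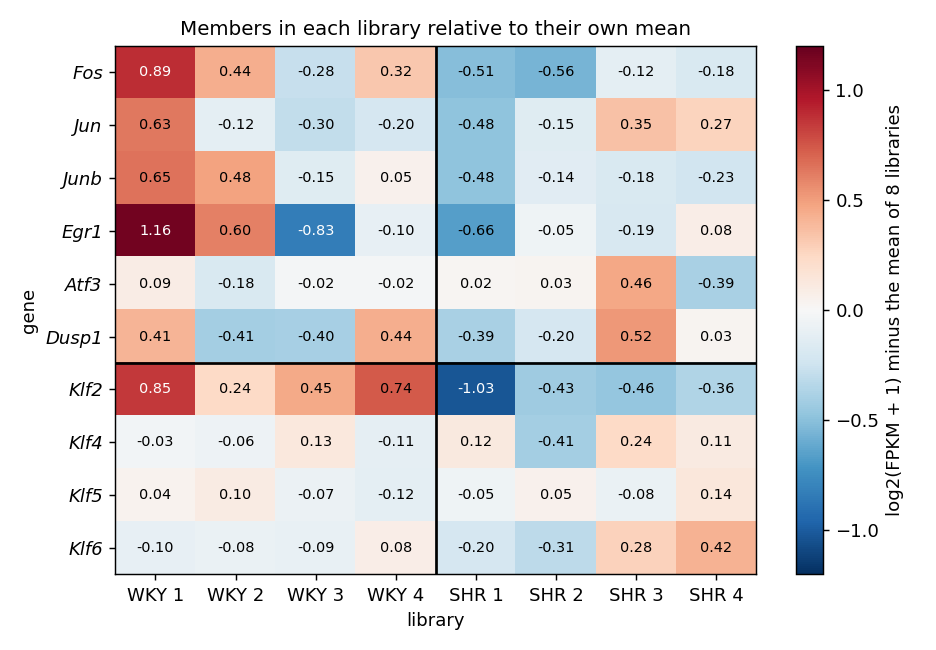
Level of each gene (rows) in each library (columns) as log2(FPKM + 1) minus the gene's mean over the 8 libraries, red above and blue below that mean. WKY replicate 1 is high for most immediate early genes, SHR replicate 1 is low, and the Klf4 and Klf5 rows are pale throughout apart from Klf4 in SHR replicate 2 (-0.41).

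Klf2 was the 1 gene of the 10 that the test called, and it met the filter through the WKY libraries alone. Klf2 (ENSRNOG00000014205) measured 3.55, 1.98, 2.45 and 3.23 FPKM across the WKY libraries, against 0.24, 0.87, 0.83 and 0.97 across SHR. Every SHR library lay below every WKY library, and SHR replicate 1 was lowest. The means were 2.802 ± 0.717 and 0.7275 ± 0.33 FPKM, so the WKY mean was 3.85 times that of SHR. It fell by 1.14 ± 0.18 on the log2(FPKM + 1) scale (SE, limma adjusted p = 0.00165), a scale that understates changes at so low a level. The authors' deposited table gives a log2 fold change of -1.93 and a q-value of 3.13e-05. With 1 of 10 genes called lower and 0 higher, the count stands beside 7.48% of all tested genes called lower. By non-overlap it is also 1 of 10, beside 16.1% of all tested genes in either direction and 10.8% lower in SHR.

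Some transcripts of T and natural killer cells were also lower in SHR. The 8 of 12 markers of these cells that had a row summed to 69.37, 36.12, 129.7 and 83.92 FPKM in WKY replicates 1 to 4 and to 12.13, 21.82, 19.96 and 11.29 FPKM in SHR replicates 1 to 4. Of the 7 tested, 4 fell and 0 rose, with a median log2 difference of -1.23 beside -0.07 over all tested genes. Over all tested genes 7.48% were called lower and 3.4% higher. Cd3e (adjusted p = 0.0507), Cd8a (adjusted p = 0.141) and Cd247 (adjusted p = 0.257) did not pass. Those that fell were the granzyme genes Gzma (46.12 ± 25.1 to 7.205 ± 2.65 FPKM, limma adjusted p = 0.0073) and Gzmb (adjusted p = 0.00206), the granule gene Nkg7 (adjusted p = 0.00455), which reached 1 FPKM in 4 WKY and 0 SHR libraries and so was tested through WKY alone, and Cd3g, a CD3 chain (adjusted p = 0.0264, lost in 6 of 18 alternatives). The library with the highest Klf2, WKY replicate 1, was not the one with the highest sum of these markers, WKY replicate 3. WKY replicate 2 was the lowest WKY library for both. Gzma alone gave 37.39, 21.45, 80.87 and 44.75 FPKM of the sum in WKY replicates 1 to 4, so the sum's order rests largely on 1 gene. Of 10 endothelial markers 9 had no row under their names and were not analysed here, and the remaining 1, the junction gene Esam, fell from 4.062 ± 0.629 to 2.402 ± 0.326 FPKM (limma adjusted p = 0.0156). That call was lost in 3 of 18 alternatives, among them without WKY replicate 4 (adjusted p = 0.0537). The part of lymphocytes or endothelium in the Klf2 result was not tested. Of fibroblast and smooth muscle markers 4 of 12 had a row and summed to 2.82 to 6.6 FPKM per library. Among them Pdgfrb, a growth factor receptor of pericytes and fibroblasts, rose (0.875 ± 0.192 to 2.047 ± 0.24 FPKM, adjusted p = 0.0029) and the smooth muscle myosin gene Myh11 was at 1.535 ± 0.3 and 1.658 ± 0.552 FPKM. Pdgfrb passed the filter on low values through 4 SHR libraries and 1 WKY library, and its call was lost in 1 of 18 alternatives. Of 8 markers of B and plasma cells, 0 had a row. Of 7 tested myeloid markers 1 rose and 0 fell, and 5 had a negative log2 difference, with a median of -0.53. The gene that rose, against the sign of most of its list, was Cd14, a lipopolysaccharide co-receptor, from 86.78 ± 2.46 to 130.9 ± 4.13 FPKM (adjusted p = 0.00188). The next in mean level, the lysozyme gene Lyz2, had means of 11.71 ± 5.99 FPKM in WKY and 6.678 ± 4.65 in SHR, which missed the threshold. Cd14 thus stood far above the rest of its list in level, and its cell of origin was not tested.

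**Figure D4:**
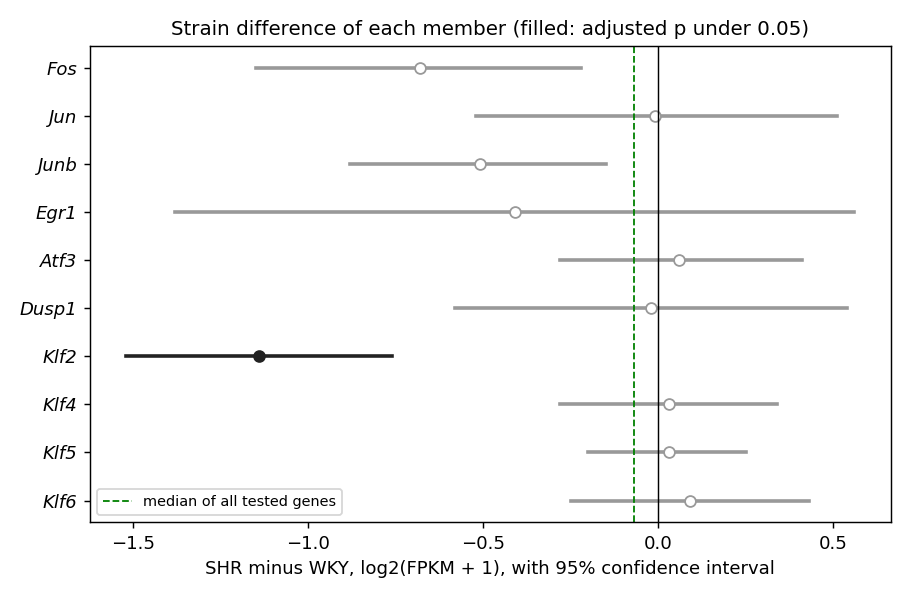
Log2 difference SHR minus WKY of log2(FPKM + 1) for each gene with its 95% confidence interval from limma (horizontal axis), filled where the adjusted p was under 0.05, with the median of all tested genes dashed at -0.07. Klf2 is filled at -1.14, the intervals of Fos and Junb lie below 0 although their adjusted p missed the threshold, and Egr1 has the widest interval.

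Klf4, Klf5 and Klf6 differed little between strain means and did not pass. Klf4 (ENSRNOG00000016299) measured 256.05, 250.65, 286.21 and 242.32 FPKM across the WKY libraries, against 284.02, 195.51, 307.72 and 281.27 across SHR. SHR replicate 2 was the lowest of all and SHR replicate 3 the highest, and the log2 difference was 0.03 ± 0.14 (95% confidence interval -0.28 to 0.34, limma adjusted p = 0.92). Klf5 (ENSRNOG00000008785) measured 213.64, 223.19, 198.5 and 191.8 FPKM across the WKY libraries, against 201.03, 215.86, 197.25 and 229.63 across SHR. In each strain its highest value was 1.16 times its lowest, and the log2 difference was 0.03 ± 0.10 (95% confidence interval -0.20 to 0.25). Klf6 (ENSRNOG00000016885) measured 73.22, 74.2, 73.47 and 82.78 FPKM across the WKY libraries, against 67.87, 63.05, 94.95 and 105.01 across SHR. SHR replicates 3 and 4 lay above all WKY libraries and SHR replicates 1 and 2 below them, for a log2 difference of 0.09 ± 0.16 (95% confidence interval -0.25 to 0.43).

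The balance of Klf4 to Klf5 was compared directly, because the pair is known from opposite ends of the crypt axis. The log2 ratio was 0.26, 0.17, 0.53 and 0.34 in WKY replicates 1 to 4 and 0.5, -0.14, 0.64 and 0.29 in SHR replicates 1 to 4. The means were 0.32 ± 0.15 and 0.32 ± 0.34 (exact two-sided permutation test over 70 splits, p = 1, where the smallest possible p is 0.0286). SHR replicate 2 was the 1 library in which Klf5 exceeded Klf4.

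Other transcripts of the crypt axis did differ between the strains. Over all tested genes 3.4% were called higher and 7.48% lower. Of 20 genes listed for surface colonocytes 4 rose and 0 fell, with a median log2 difference of 0.30. The list is not of surface cells alone, since Tff3 also stands in the goblet cell list and Vil1 and Cdh17 in the epithelial list. Those that rose were the sulfate transporter gene Slc26a2 (62.87 ± 5.31 to 109.4 ± 25.4 FPKM, limma adjusted p = 0.0106), the mucin gene Muc13 (681 ± 75.8 to 966 ± 129 FPKM), the homeobox gene Cdx1 (125 ± 12.7 to 172.8 ± 21.2 FPKM) and the fatty acid binding gene Fabp2 (131.7 ± 51.8 to 236.9 ± 36.9 FPKM). The calls of Muc13, Cdx1 and Fabp2 were lost in 4, 7 and 8 of 18 alternatives. The number called higher was 1 without WKY replicate 1 and 1 without SHR replicate 3, and 2 when any of WKY replicates 2 and 4 and SHR replicates 1 and 2 was omitted. In the other direction the water channel gene Aqp8, singled out after its values were seen, measured 8.68, 20.13, 95.41 and 31.17 FPKM across the WKY libraries and 2.08, 0.31, 5.88 and 3.82 across SHR. Its strains did not overlap, and the log2 difference of -3.05 ± 0.83 was the widest of the list but missed the threshold (limma adjusted p = 0.0681). Without WKY replicate 1, with the replicate block and by the authors' q-values, 1 gene of this list was called lower. Of 9 tested goblet cell genes 4 fell and 0 rose, with a median of -0.63. They were Clca1, Fcgbp, Agr2 and Zg16, of which Clca1, for a protein secreted with mucus, fell by 1.79 ± 0.15 on the log2 scale, while the call of Zg16 was lost in 6 of 18. Of 12 tested genes of the crypt base and of proliferation 5 fell and 0 rose, with a median of -0.48, among them Cd44, Smoc2, Mcm2 and Cdk1. The remaining 5 goblet and 7 crypt and proliferation genes did not pass. Among them, named after their values were seen, the goblet cell factor gene Spdef had a log2 difference of -0.11 ± 0.15 (adjusted p = 0.682), the proliferation marker Mki67 one of -0.27 ± 0.23 (adjusted p = 0.462) and the cyclin gene Ccnd1 one of 0.09 ± 0.13 (adjusted p = 0.7). The part of cell type shares in these values was not tested.

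Per kilobase, the 10 genes spanned a wide range of levels in both strains. The order of WKY means was Klf4 (258.8 FPKM), Fos, Klf5 (206.8 FPKM), Junb, Klf6, Jun, Dusp1, Egr1, Atf3 (16.99 FPKM) and Klf2. In SHR the order was the same except that Klf5 (210.9 FPKM) stood above Fos. Neighbours whose library ranges did not overlap in WKY were Klf5 over Junb, Junb over Klf6 and Atf3 over Klf2. In SHR they were Klf5 over Fos, Fos over Junb, Dusp1 over Egr1 and Atf3 over Klf2. The remaining neighbours overlapped, and Egr1 exceeded Atf3 in 3 of 4 WKY and 2 of 4 SHR libraries. The level of Klf6 rests on an effective length of 648 bases, the shortest of the 10, where Klf5 has 2993 and Egr1 2865, so its place in the order depends on the gene model used.

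Beyond the 6 immediate early genes above, 36 of 46 listed early response genes had a row, and all 36 were tested. Of these, 9 fell, 1 rose and 26 did not pass, where 7.48% of all tested genes were called lower and 3.4% higher. In this list 30 had a negative log2 difference, and the median was -0.28 beside -0.07 over all tested genes. The list held 7 lower and 3 higher with quantile normalization, and 7 and 2 with median centring. It held 6 and 0 without WKY replicate 2, and 11 and 1 without WKY replicate 3. Id3, Id2 and Id1, whose proteins block basic helix-loop-helix factors and which are known targets of bone morphogenetic protein signals, had the smallest adjusted p of the list. Id3 measured 50.26, 33.9, 46.4 and 46.59 FPKM across the WKY libraries, against 12.95, 9.38, 12.92 and 8.47 across SHR, a fall by 1.93 ± 0.16 on the log2 scale (limma adjusted p = 7.36e-06). Id2 went from 46.56 ± 4.87 to 15.03 ± 2.78 FPKM and Id1 from 424.3 ± 49.6 to 194.2 ± 14.8 FPKM. Their strains were far apart, with every SHR library of each gene below every WKY library. Nfil3, a repressor with ties to the circadian clock, fell from 21.25 ± 3.02 to 9.49 ± 2.19 FPKM (limma adjusted p = 0.00073).

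Further called genes of that list are named after their values were seen. The orphan nuclear receptor gene Nr4a1, an immediate early gene in many cell types, measured 8.33, 6.54, 5.66 and 4.2 FPKM across the WKY libraries, against 2.46, 2.76, 2.79 and 2.39 across SHR. All SHR values were below all WKY values, and it fell by 0.97 ± 0.16 on the log2 scale (limma adjusted p = 0.00278). Its relative Nr4a2 fell from 4.395 ± 0.649 to 2.327 ± 0.0943 FPKM (adjusted p = 0.00331). Gadd45b, a stress response gene, the Notch target Hes1 and Zfp36l1, which encodes a factor of messenger RNA decay, fell with adjusted p of 0.0215, 0.037 and 0.0495, and these calls were lost in 6, 11 and 14 of 18 alternatives. The 1 gene that rose was Plk3, for a stress-responsive kinase (2.165 ± 0.514 to 4.868 ± 2.1 FPKM, adjusted p = 0.0348, lost in 8 of 18 alternatives). As with the 6 genes above, WKY replicate 1 was the highest WKY library for 18 of the 36, and it or WKY replicate 2 was the highest of all 8 libraries for 23 of them (63.9%, beside 34.1% of all tested genes).

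**Figure D5:**
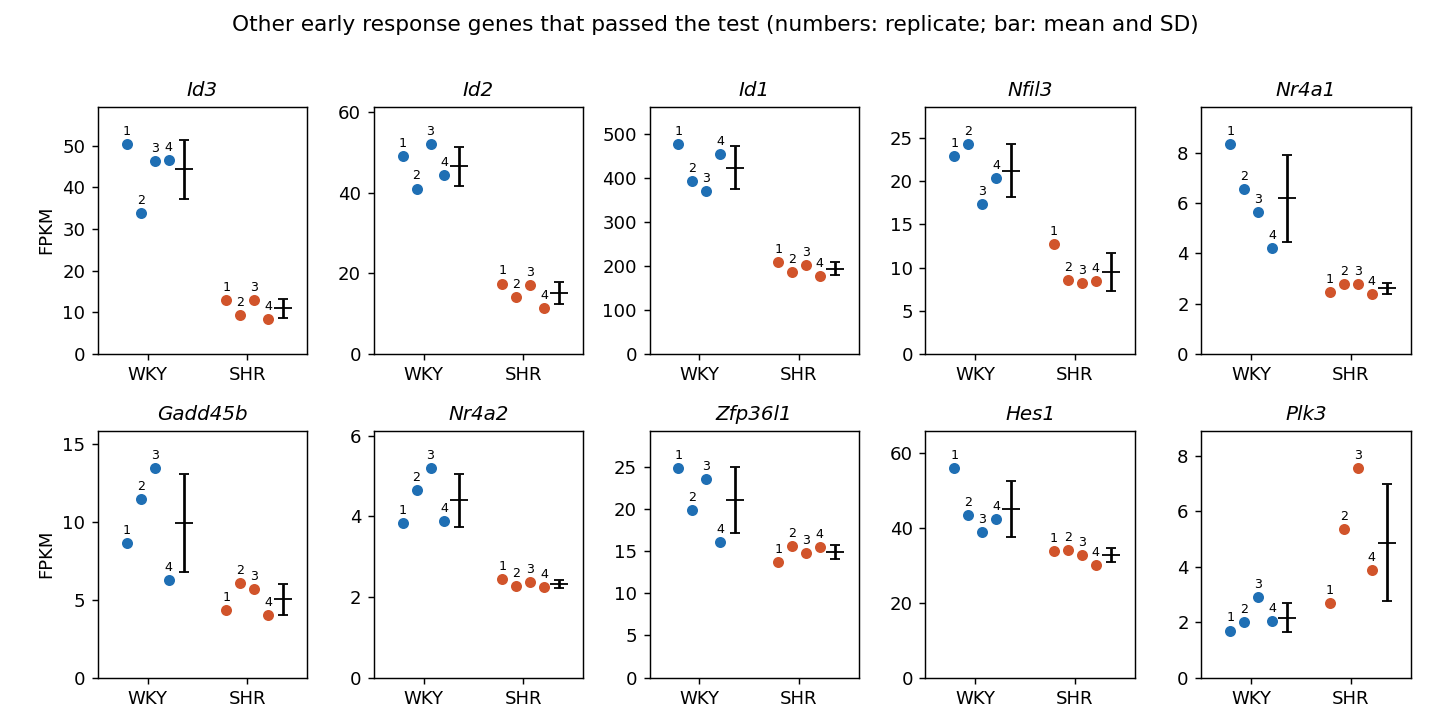
FPKM (vertical axes, each from 0) of the 10 other early response genes with an adjusted p under 0.05 in the 4 WKY (blue) and 4 SHR (orange) libraries, numbered by replicate, with mean and SD. The 3 Id genes show the widest gaps between strains, and Plk3 is the 1 gene with higher values in SHR.

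The partners and regulators of the immediate early genes showed few strain differences. Of 6 tested AP-1 and related factors 0 passed at an adjusted p under 0.05 by limma, 0 had an unadjusted p under 0.05, 0 passed by the authors' q-values, and the median was 0.06. The most abundant were Jund, at 124 ± 11.6 and 139.2 ± 22.5 FPKM, and Fosl2, at 26.08 ± 7.29 and 23.41 ± 7.1 FPKM. Of 19 tested kinases and factors that drive immediate early genes 0 passed by limma, with a median of 0.04, 3 genes at an unadjusted p under 0.05 and 1 by the authors' q-values. The MAP kinase gene Mapk3 was at 257.4 ± 14.9 and 263.9 ± 42 FPKM and the kinase kinase gene Map2k2 at 153.9 ± 16.4 and 140.5 ± 23 FPKM. Among the inhibitors that feed back on these kinases, 2 of 12 tested rose and 0 fell, with a median of 0.12. Over all tested genes 3.4% were called higher and 7.48% lower. Spry4, an inhibitor of receptor tyrosine kinase signalling, measured 0.56, 1.13, 0.67 and 0.56 FPKM across the WKY libraries, against 2.06, 3.18, 2.54 and 2.24 across SHR. Every SHR library lay above every WKY library (log2 difference 1.02 ± 0.14, limma adjusted p = 0.00073), and it passed the filter on low values through SHR and 1 WKY library. Dusp16, a phosphatase of stress-activated MAP kinases, rose (5.742 ± 1.06 FPKM in WKY, 8.843 ± 1.6 in SHR, adjusted p = 0.0392), a call lost in 7 of 18 alternatives.

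In the rest of the Kruppel-like and Sp family, 1 of 11 tested genes fell, beside 7.48% of all tested genes. None of the family rose, and the median was -0.03. This was Klf11, which can be induced by transforming growth factor beta, at 3.25, 2.87, 3.13 and 2.94 FPKM in WKY and 2.02, 2.15, 1.63 and 2.23 FPKM in SHR. The strains did not overlap, and the log2 difference was -0.43 ± 0.11 (limma adjusted p = 0.0299, lost in 9 of 18 alternatives). The most abundant others were Klf3, at 51.15 ± 4.3 and 45.49 ± 4.69 FPKM, and Sp3, at 42.85 ± 3.44 and 38.34 ± 4.19 FPKM, and neither passed.

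Heat shock genes, which also respond to handling and warming, were read library by library. Of 10 tested 0 passed by limma, with 0 at an unadjusted p under 0.05 and 0 by the authors' q-values. Their summed level was 2425, 2437, 1493 and 2076 FPKM in WKY replicates 1 to 4 and 1594, 1958, 1564 and 2390 FPKM in SHR replicates 1 to 4. WKY replicate 3, the lowest WKY library for Fos, Jun, Junb and Egr1, was also the lowest WKY library here, and SHR replicate 4 was the highest SHR library. WKY replicate 3 was the lowest WKY library for 39.7% of all tested genes. Part of the sum was Hspe1 (538.5 ± 123 FPKM in WKY, 396 ± 88.9 in SHR), whose effective length is only 48 bases. The most abundant were Hspa8, at 508 ± 113 and 612 ± 93 FPKM, and Hsp90ab1, at 519.1 ± 72.6 and 425.7 ± 84.6 FPKM. The least even of the list, named after their values were seen, were Hspa1a and Hspa1b, with within-strain log2 SDs of 1.346 and 1.383. Hspa1a measured 129.47, 74.99, 26.44 and 26.88 FPKM in WKY, against 3.46, 48.83, 19.19 and 35.13 in SHR. Hspa1b measured 116.81, 57.38, 17.36 and 15.45 FPKM in WKY, against 9.63, 57.23, 10.85 and 60.92 in SHR. WKY replicate 1 was the highest library for both genes, and neither passed. The part of handling in the levels of the immediate early genes was not tested.

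The genes whose profile lay closest to that of Fos included other immediate early genes. Likeness was the root mean square difference of log2(FPKM + 1), each gene centred on its mean, over the 8 libraries, where Fos itself had a root mean square of 0.47 about its mean. The 5 nearest named genes were Egr2 (0.16), a relative of Egr1, then Usmg5, a small subunit of the mitochondrial ATP synthase, Ier2, an immediate early gene, and Gmnn, an inhibitor of replication licensing, at 0.20 each, and Junb (0.21). Of these Usmg5 fell (550.4 ± 133 to 287.4 ± 40.1 FPKM, limma adjusted p = 0.00382), and the other 4 did not pass. Egr2 lay near the floor, at 1.395 ± 0.663 FPKM in WKY and 0.6075 ± 0.303 in SHR, where log2(FPKM + 1) understates changes. It reached 1 FPKM in 3 WKY libraries and 1 SHR library. Without WKY replicate 1 none of the 5 stayed among the nearest 5. For Klf4, whose own root mean square was 0.19, the nearest were Ppp1r37 (0.10), Asic2 (0.12), and Zfp772, Tspan1 and Zfp18 (0.13 each), and without SHR replicate 2 none of these stayed.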

How the data were processed

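Poly(A)-selected, directional paired-end libraries were sequenced, per the labels' protocols. The submitters' processing notes name STAR, Trimmomatic and FastQC. No source used here names the genome build, annotation or counting, so no coordinates are printed. The labels give the organism as Rattus rattus, while the gene identifiers carry the prefix Ensembl uses for the brown rat. The deposited library values were read as FPKM, which no header names and which was inferred from their pattern. The authors also deposited the mean CPM of each strain, log2 fold changes, p-values and q-values, per the file headers. Effective length is the authors' summed mean CPM over summed mean FPKM.

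The test was limma 3.58.1 in R 4.3.3 on log2(FPKM + 1), on strain alone (two-sided, with trend and robust options), adjusted by Benjamini-Hochberg over 11069 genes and a threshold of 0.05. The set of tested genes was kept when libraries were left out. The method was checked on simulated data. The 10 genes and the other lists were chosen with earlier results of these data known. From each other list the called genes were named, up to 4, or else the 2 of highest mean, along with the 5 genes nearest to Fos and to Klf4. Where a symbol has several rows, that of highest mean was taken. Alternatives were leaving out each library, pseudocounts of 0.1 and 5, quantile normalization, no filter, a replicate block, median centring, a 2-fold threshold and the authors' q-values. Leaving out 2 libraries together, scaling without mitochondrial genes and all alternatives for the nearest genes were added after seeing the data. Identical copies, overlapping genes and strand use in counting could not be checked, and no sequences are shown. Figures were drawn with matplotlib 3.10.9.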

Additional observations from a re-analysis of the deposited data

Results flagged for a closer look

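Of 120 groups of 4 libraries examined, 6 held a library far from the other 3. That is no more than the share of about 1 group in 20 that chance gives. Jun was at 112.7 FPKM in WKY replicate 1, with the other WKY libraries between 58.6 and 66.51. Klf6 was at 82.78 FPKM in WKY replicate 4, against 73.22 to 74.2 in the others. Nfil3 was at 12.77 FPKM in SHR replicate 1, against 8.22 to 8.56. Hsp90ab1 was at 410.49 FPKM in WKY replicate 3, against 549.23 to 561.72, and Smoc2 at 4.08 FPKM in WKY replicate 1, against 5.91 to 5.98. Usmg5 was at 346.83 FPKM in SHR replicate 4, against 262.42 to 276.6.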

How the results depend on the processing

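Klf2 was called lower under all 18 alternatives, with limma adjusted p between 0.00114 and 0.00813. The members called lower numbered 1 to 3 when 1 library was left out, 3 without WKY replicate 3 and SHR replicate 4 together, and 3 by the authors' q-values, and in each case of 3 they were Klf2, Fos and Junb. Fos and Junb were negative under all 18, with adjusted p of 0.00554 to 0.141 and 0.0177 to 0.206. Over all tested genes the counts ran from 215 to 583 higher and from 499 to 1209 lower when 1 library was omitted. The higher count was 644 with quantile normalization and 675 by the authors' q-values, it was 725 with 457 lower with scaling without mitochondrial genes, and 64 with 143 lower at 2-fold, and 1617 were lower without the 2 libraries. Signs of values that did not pass turned as follows. With quantile normalization the Klf4 to Klf5 difference was 0.04, Dusp1 0.03, Jun 0.06 and Krt8 0.26. With median centring Dusp1 was 0.03 and Jun 0.04. With that scaling Dusp1 was 0.14, Jun 0.16 and Map2k2 0.02, and Fosl2, Krt8 and Sp3 were 0.00. Without the 2 libraries Klf5 was -0.03, Klf6 -0.05 and Myh11 -0.09. Omitting 1 library gave -0.11 to 0.15 for the Klf4 to Klf5 difference, -0.08 to 0.20 for Atf3, -0.20 to 0.12 for Dusp1, -0.33 to 0.01 for Fosl2, -0.12 to 0.20 for Jun, -0.05 to 0.17 for Klf4, -0.01 to 0.07 for Klf5, -0.03 to 0.21 for Klf6, -0.07 to 0.12 for Mapk3 and -0.08 to 0.13 for Myh11. The causes were not tested. The labels do not say whether the replicate numbers pair the libraries. Deviations of same-numbered libraries correlated at -0.105, -0.0393, 0.463 and -0.29, which are too few values to decide it. With the replicate block 395 genes were higher, 917 lower, and 1 member was lower. The number of reads is unknown, so counting error cannot be given, least of all for Klf2.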
